A study of Homo sapiens with 2 samples.

Results

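The insulin-like growth factor (IGF) receptors and binding proteins were examined in Seg-1 cells, a human tumour line, through 10 genes: the receptor genes IGF1R, IGF2R and INSR, the receptor adaptor genes IRS1 and IRS2, and the binding protein genes IGFBP2, IGFBP3, IGFBP4, IGFBP6 and IGFBP7. Members were all probe sets of the Affymetrix Human Genome U133 Plus 2.0 array whose annotation names exactly 1 of these genes. A probe set is the group of short oligonucleotides that reports a transcript. The 10 genes, of 19775 genes with such a probe set, had 26 probe sets. One array carried RNA from a culture given a negative control siRNA without homology to known genes, and 1 carried RNA from a culture given an siRNA against FGF-AS, the antisense RNA of the fibroblast growth factor 2 locus, transcribed from NUDT6. Both cultures were reverse transfected with a lipid reagent, received between 25 and 200 nM siRNA by the protocol, and were harvested after 72 hours. No untransfected culture was analysed here. Culture and siRNA cannot be told apart with 1 array per group, so the differences have no replicate check, and p-values are not given.

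Insulin and the IGFs act through the receptor tyrosine kinases INSR and IGF1R. These phosphorylate the adaptor proteins IRS1 and IRS2, which recruit phosphatidylinositol 3-kinase (PI3K) and so feed the AKT and mTOR pathway. IGF2R, the cation-independent mannose 6-phosphate receptor, has no kinase and carries IGF2 to lysosomes. The secreted binding proteins hold IGFs outside the cell and set how much reaches the receptors. Many carcinoma lines express IGF1R and secrete binding proteins.

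With FGF-AS siRNA, the adaptor genes IRS1 and IRS2 read higher on all 5 of their probe sets, 3 of IRS1 and 2 of IRS2. All probe sets were higher in 12.9% of genes with exactly 3 measured ones and in 24.2% of those with exactly 2. IGF1R read lower on all 5 of its probe sets, as did 24.5% of genes with exactly 5 measured ones, and its brightest probe set changed sign under median centring of the arrays. IGFBP3 read lower on both of its probe sets, as did 36.1% of genes with exactly 2 measured ones. IGF2R read lower on its 2 brighter probe sets and higher on its dim one. All probe sets of IRS2 and IGFBP3 and the 2 brighter ones of IGF2R end in _s_at, a kind that can match related transcripts. The single probe set of IGFBP4 had the most extreme log2 ratio of the 10 genes, 2.35, from a control signal under the signal minimum. IGFBP2, IGFBP6 and IGFBP7 differed by less than the disagreement between probe sets, and INSR was dim on every probe set.

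Signals are the authors' deposited intensities, in array units. Log2 ratios were formed after adding 6.1 to every signal, as FGF-AS siRNA over control siRNA, and the fold differences below are on that scale, where the offset of 6.1 understates the change of dim probe sets. A probe set was called measured when the mean of both arrays was at least 23.9, dim below 145.2 and bright from there. The error given is how far probe sets of the same gene disagreed on these 2 arrays. The SD of a single log2 ratio was 0.36 among bright probe sets (3050 genes) and 0.58 among dim ones (2365 genes). It holds neither the spread between cultures nor that between hybridisations.

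The knockdown was read from NUDT6, whose 2 probe sets stood at 27.7% and 29.1% of control. The labels name the line a lung adenocarcinoma line and give its identity as H460. Of 6 epithelial markers 5 were measured, with the keratin genes KRT8 and KRT18 bright, EPCAM dim and CDH1 below the minimum (0.9 and 18.4). Of the lung markers, SFTPB, SFTPC and NAPSA were dim, and NKX2-1 (24.9 and 11.8), SFTPD and SCGB1A1 were below the minimum. SFTPC was past 2-fold higher (14.7 and 59.1, log2 ratio 1.65), from a control signal under the minimum. Of 7 fibroblast markers 4 were measured, and COL1A2, LUM and PDGFRB were below the minimum. All 7 summed to 565.1 on the control array and 369.4 on the FGF-AS siRNA array. Among them COL3A1, a fibrillar collagen gene, was the only measured one past 2-fold (316.4 and 104.6, log2 ratio -1.54), and the lower sum rests on it. DCN (-0.39) and COL1A1 (-0.11) were closer to 0, and THY1 went the other way (0.43). Below the minimum, COL1A2 (6.4 and 17.9) and PDGFRB (7.3 and 28.8) read higher and LUM (8.1 and 6.2) lower. Leukocyte markers summed to 80.8 and 93.9 and endothelial markers to 58.0 and 78.0. The part of these markers in the results was not tested.

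Of the 26 probe sets, 23 were measured, and every gene had at least 1. The probe sets below the minimum were 207851_s_at of INSR (22.3 and 21.5) and 201162_at (7.6 and 7.8) and 213910_at (3.0 and 0.6) of IGFBP7. Among the 23, 12 had a log2 ratio above 0 and 11 below, against 43.2% above 0 among all 23222 measured probe sets with 1 gene name. Of those above 0, 201508_at (IGFBP4), 226450_at and 226212_s_at (INSR) and 201163_s_at (IGFBP7) counted as measured only through the FGF-AS array. Of those below 0, 208441_at (IGF1R) did so only through the control array. At least 2-fold higher with FGF-AS siRNA were 3 (1.94% of all measured probe sets), those of IGFBP4, IRS1 and INSR. The IGFBP4 and INSR ones were dim and had control signals under the minimum, so they counted as measured only through the FGF-AS array. Among dim probe sets 3.01% were at least 2-fold higher. At least 2-fold lower was 1 (5.33% of all), that of IGF1R. The 10 bright member probe sets belong to only 5 genes. Of these probe sets 7 were below 0, all of IGF1R, IGF2R and IGFBP3, against 54.5% of all bright probe sets. The 3 above 0 were the bright probe sets of IRS1 and IRS2. Taking each gene's brightest probe set, 6 genes were above 0 and 4 below (48.1% of all 12352 measured genes were above 0), with a median of 0.19 beside -0.02 over all measured genes. At the bright minimum this median was -0.12, over 5 genes. The 10 genes therefore had no common direction. The receptor genes also differed among themselves, with brightest probe sets at -0.12 for IGF1R, -0.44 for IGF2R and 0.49 for INSR. A difference between receptors, adaptors and binding proteins as groups was not tested.

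**Figure D1:**
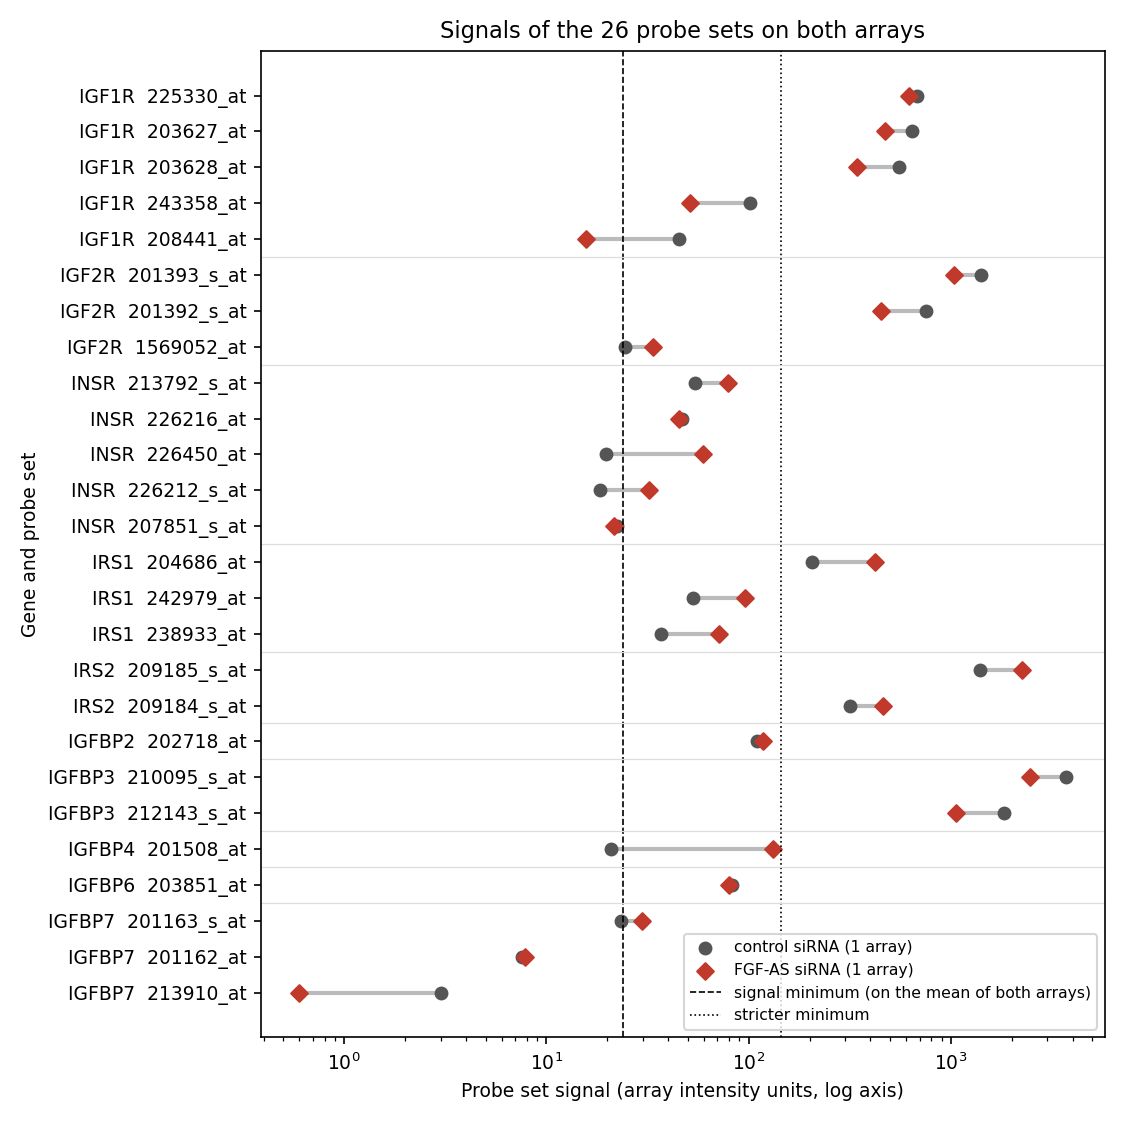
Signal of each of the 26 probe sets (array intensity units, log axis) on the control siRNA array (grey circles) and the FGF-AS siRNA array (red diamonds), 1 array each, with a dashed line at the signal minimum of 23.9 and a dotted line at 145.2. The red diamonds lie left of the grey circles for all 5 probe sets of IGF1R and both of IGFBP3, and right of them for all 5 of IRS1 and IRS2 and for IGFBP4.

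IGF1R encodes the receptor that binds IGF1 and IGF2 and signals through its kinase. Its brightest probe set, 225330_at, read 677.3 on the control array and 622.8 on the FGF-AS array, a log2 ratio of -0.12. Probe set 203627_at read 645.2 and 471.9 (-0.45), and 203628_at read 551.8 and 345.1 (-0.67). Of these 3 bright probe sets, 2 lay further from 0 than the SD of 0.36, and 225330_at lay within it. The dim probe set 243358_at read 101.5 and 51.3 (-0.91), and 208441_at read 45.0 and 15.7 (-1.23), the latter under the minimum on the FGF-AS siRNA array. Lower signal on every probe set went with an unequal size: the median over the 5 was -0.67 and their SD 0.42. All 5 probe sets lower was also found in 24.5% of the 278 genes with exactly 5 measured probe sets, and 44 of the 278 had all 5 at least as far below 0 as IGF1R's closest one. Under median centring of the arrays the ratio of 225330_at turned to 0.02, while the other 4 stayed between -0.31 and -1.46 under every offset and scaling tried. The 2-fold difference of 208441_at ended with a larger offset (-0.79), and 8.41% of dim probe sets were at least 2-fold lower.

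IGF2R encodes the receptor that clears IGF2 and sorts lysosomal enzymes. Probe set 201393_s_at read 1414.3 on the control array and 1040.5 on the FGF-AS array, 1.36-fold lower (log2 ratio -0.44), and 201392_s_at read 751.4 and 450.1, 1.66-fold lower (-0.73). Both bright ratios were larger than the SD of 0.36. Of all measured probe sets, 21.3% had a lower ratio than 201393_s_at and 10.4% a lower one than 201392_s_at. The third probe set, 1569052_at, was dim and went the other way, at 24.5 and 33.8 (0.38, within the SD of 0.58). The 2 bright probe sets stayed lower under all offsets and scalings tried, between -0.30 and -0.74.

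INSR encodes the insulin receptor, the close relative of IGF1R. None of its 5 probe sets was bright. Probe set 213792_s_at read 54.4 and 78.7 (log2 ratio 0.49), 226216_at read 46.9 and 45.4 (-0.04), 226450_at read 19.6 and 59.6 (1.35), and 226212_s_at read 18.5 and 32.1 (0.63). The control signals of 226450_at and 226212_s_at were under the minimum, so their ratios rest on a signal that cannot be told from background. The 4 measured ratios had an SD of 0.58, the same as that of dim probe sets in general, of which 3.01% were at least 2-fold higher. With a larger offset the ratio of 226450_at did not reach 2-fold (0.93), and the ratio of 226216_at turned to between 0.08 and 0.11 under the 3 other scalings. A direction for INSR was not resolved by these arrays.

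IRS1 encodes a docking protein of the insulin and IGF1 receptors. Its bright probe set 204686_at read 205.7 on the control array and 421.8 on the FGF-AS array, 2.02-fold higher (log2 ratio 1.01). The dim probe sets agreed in direction and size: 242979_at read 53.1 and 95.6 (0.78) and 238933_at read 36.9 and 71.6 (0.85). The SD between its 3 ratios was 0.12, below the SDs of 0.36 and 0.58 over all genes, and each ratio exceeded the SD of its signal class. Of 1664 genes with exactly 3 measured probe sets, 12.9% had all 3 higher, and in 4 of them, IRS1 included, all 3 ratios were at least 0.78. Among bright probe sets 0.972% were at least 2-fold higher. The 2-fold difference of 204686_at lay at the threshold and ended with a larger offset, at 0.96, while the 3 ratios stayed between 0.63 and 1.15 under all offsets and scalings tried.

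IRS2 encodes another widely expressed docking protein, which shares its domains and its PI3K recruitment with IRS1. Probe set 209185_s_at read 1391.4 on the control array and 2244.0 on the FGF-AS array, 1.61-fold higher (log2 ratio 0.69), and 209184_s_at read 315.5 and 462.0, 1.46-fold higher (0.54). Both were bright, both ratios were larger than the SD of 0.36, and neither passed 2-fold. Both probe sets higher was found in 24.2% of the 3331 genes with exactly 2 measured probe sets, and in 74 of them both were at least 0.54. Over the offsets and scalings tried the ratios of IRS2 ran from 0.52 to 0.83.

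**Figure D2:**
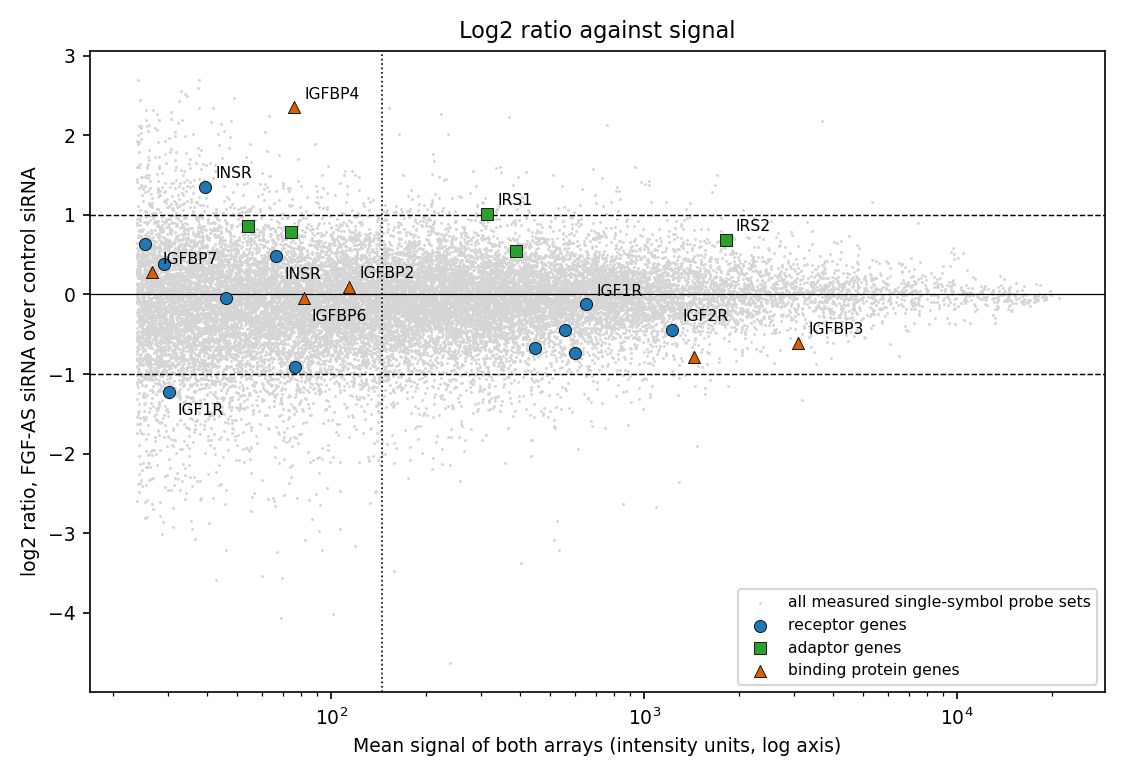
Log2 ratio (FGF-AS siRNA over control siRNA) against the mean signal of both arrays (intensity units, log axis) for all 23222 measured probe sets with 1 gene name (grey) and the 23 measured members (blue circles, receptor genes; green squares, adaptor genes; orange triangles, binding protein genes); dashed lines mark 2-fold and the dotted line the bright minimum of 145.2. The green squares lie above 0 at every signal level, the receptor and IGFBP3 symbols right of the dotted line lie below 0, and IGFBP4 at 2.35 lies at the upper edge of the grey points of like signal.

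IGFBP3 encodes the binding protein that carries most IGF in blood, in a complex with the acid-labile subunit, and that tumour cells also secrete. Probe set 210095_s_at read 3728.0 on the control array and 2449.0 on the FGF-AS array, 1.52-fold lower (log2 ratio -0.60), and 212143_s_at read 1832.3 and 1055.8, 1.73-fold lower (-0.79). Both were far above the bright minimum on both arrays, and both ratios were larger than the SD of 0.36 without passing 2-fold. Both probe sets lower was found in 36.1% of genes with exactly 2 measured probe sets, and in 119 of the 3331 both were at or below -0.60. The ratios stayed between -0.46 and -0.79 over the offsets and scalings tried.

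IGFBP4 encodes a binding protein that mainly restrains IGF action and releases IGF when the protease PAPPA cuts it. Its probe set 201508_at read 20.9 on the control array and 131.5 on the FGF-AS array (log2 ratio 2.35). The control signal was under the minimum of 23.9 and cannot be told from background, so the probe set counted as measured only through the FGF-AS array and the ratio has no firm size. No further probe set of the gene was there to set beside it. The ratio moved with the offset, from 1.79 with the larger to 2.60 with the smaller.

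The remaining binding protein genes differed little. IGFBP2, whose product binds IGF1 and IGF2 and is common in epithelial tumours, read 110.0 and 118.0 on 202718_at (log2 ratio 0.10). IGFBP6, whose product prefers IGF2, read 82.8 and 80.2 on 203851_at (-0.04), a ratio that turned to between 0.08 and 0.12 under the 3 other scalings. IGFBP7 encodes a secreted relative with low affinity for IGFs and read 23.5 and 29.8 on its only measured probe set, 201163_s_at (0.28). The control signal was under the minimum of 23.9, so this probe set counted as measured only through the FGF-AS array. All 3 ratios were smaller than the SD of 0.58 of a dim probe set.

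**Figure D3:**
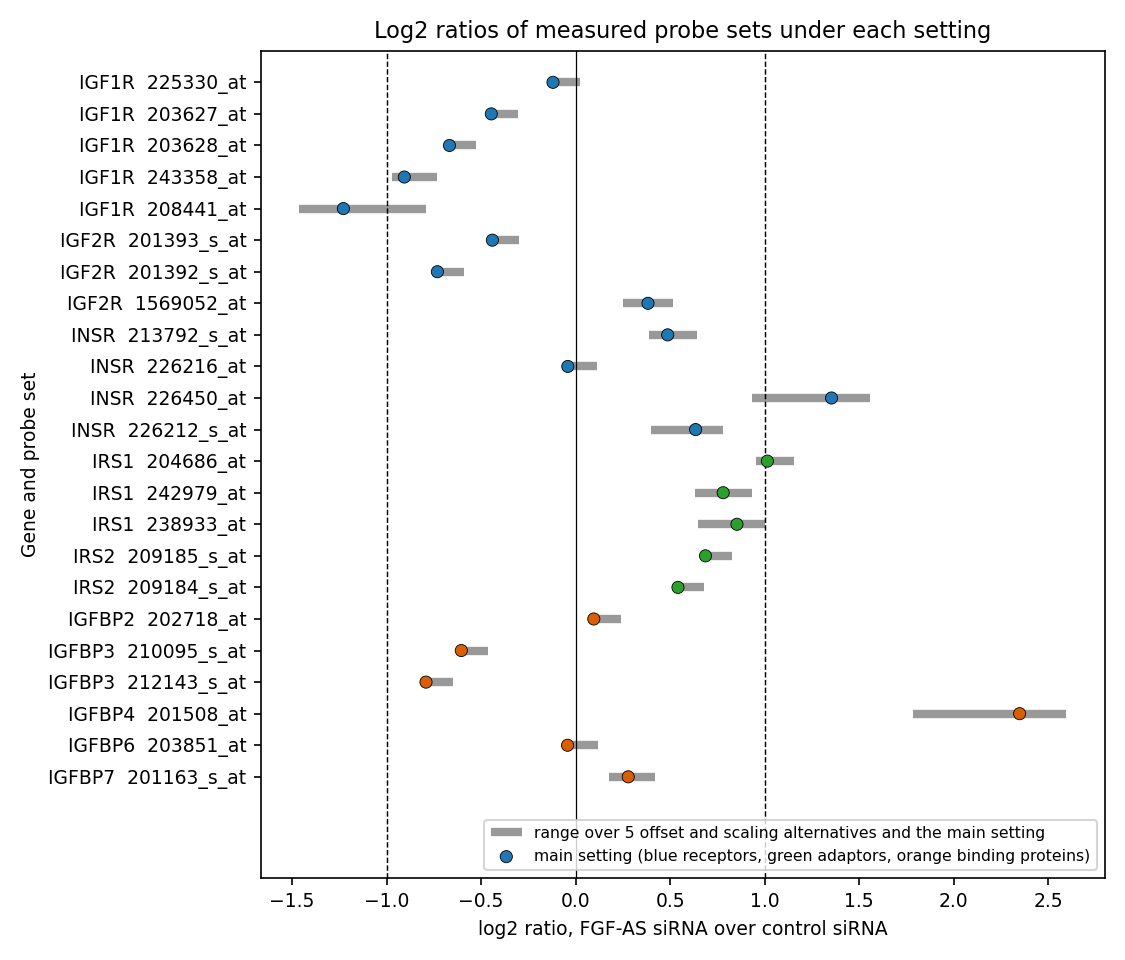
Log2 ratio (FGF-AS siRNA over control siRNA) of the 23 measured probe sets in the main setting (circles; blue, receptor genes; green, adaptor genes; orange, binding protein genes), with grey bars for the range over the main setting and 5 alternative offsets and scalings; dashed lines mark 2-fold. The bars of 20 probe sets stay on one side of 0, and those of 225330_at (IGF1R), 226216_at (INSR) and 203851_at (IGFBP6) cross it.

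The start regions of 4 genes are shown because the ratios of IRS1 and IRS2 had the same direction and those of IGFBP3 and IGFBP4 opposite directions. Windows of 300 bases, 250 before and 50 from the annotated start, came from RefSeq (GRCh38.p14), which held windows for 9 of the 10 genes. Each is printed 5′ to 3′ on the strand of the gene, with capitals for matches on either strand to the TATA motifs (TATAAA or TATATA), the GC box (GGGCGG), the E-box (CACGTG), the insulin response motif (TGTTTTG) and the forkhead motif (TGTTTAC). Neighbouring GC box matches can share bases. The windows are IRS1 at chr2:226799771-226800070 on the minus strand, IRS2 at chr13:109786534-109786833 on the minus strand, IGFBP3 at chr7:45921223-45921522 on the minus strand and IGFBP4 at chr17:40443200-40443499 on the plus strand.
IRS1: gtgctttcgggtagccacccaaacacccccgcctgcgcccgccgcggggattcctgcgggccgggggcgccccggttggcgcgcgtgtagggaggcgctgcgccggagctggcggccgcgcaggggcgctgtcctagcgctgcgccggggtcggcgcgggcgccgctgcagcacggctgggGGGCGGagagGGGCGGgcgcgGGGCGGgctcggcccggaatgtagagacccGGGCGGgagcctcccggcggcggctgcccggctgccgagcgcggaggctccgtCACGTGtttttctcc
IRS2: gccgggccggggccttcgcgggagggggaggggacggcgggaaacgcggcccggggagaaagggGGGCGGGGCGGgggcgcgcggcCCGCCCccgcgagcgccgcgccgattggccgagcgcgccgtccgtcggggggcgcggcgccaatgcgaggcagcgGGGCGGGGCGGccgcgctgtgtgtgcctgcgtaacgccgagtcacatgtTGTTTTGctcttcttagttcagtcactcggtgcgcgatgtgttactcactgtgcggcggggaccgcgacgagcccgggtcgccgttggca
IGFBP3: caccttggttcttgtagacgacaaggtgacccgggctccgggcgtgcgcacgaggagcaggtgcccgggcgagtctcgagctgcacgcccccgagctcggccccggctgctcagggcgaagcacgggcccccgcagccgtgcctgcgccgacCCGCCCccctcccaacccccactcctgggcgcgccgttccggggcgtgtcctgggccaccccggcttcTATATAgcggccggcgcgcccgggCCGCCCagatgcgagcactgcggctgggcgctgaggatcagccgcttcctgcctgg
IGFBP4: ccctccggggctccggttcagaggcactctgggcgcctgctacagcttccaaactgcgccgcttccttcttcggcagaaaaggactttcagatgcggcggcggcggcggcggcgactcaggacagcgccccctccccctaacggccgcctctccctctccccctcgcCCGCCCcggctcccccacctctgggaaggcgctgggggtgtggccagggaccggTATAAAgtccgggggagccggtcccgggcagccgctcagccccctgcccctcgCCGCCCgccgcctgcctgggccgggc

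Among the 9 genes, only IGFBP3 and IGFBP4 held a TATA motif, at 30 and 29 bases before the start, against 13.7% of all 35116 windows. The GC box stood in at least 1 window of each of the 9 genes, with 4 matches in IRS1, 5 in IRS2 and 2 each in IGFBP3 and IGFBP4, and 45.0% of all windows hold it at least once. The E-box stood once in IRS1, at base 36 after the start, and 3 times in IGF2R, against 7.26% of windows with at least 1. The insulin response motif was found in IRS2 alone, 40 bases before the start (4.92% of windows), and the forkhead motif in IGFBP6 alone (3.42%). The printed windows were rich in G and C, from 74.0% in IGFBP4 to 79.3% in IRS1, against a median of 58.7%. These matches describe the letters only, and no binding was measured.

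The wider IGF system was described with 6 lists holding 68 genes, of which 62 had a probe set naming 1 gene and 55 were measured on their brightest one. Of these 55, 30 were above 0 and 25 below, with a median of 0.08 beside -0.02 over all measured genes. Of all measured genes 48.1% were above 0 and 51.8% below, the shares to set beside each list. Past 2-fold were 2, DOK1 higher and IGF1 lower, beside 4.77% of all measured genes past 2-fold either way. With probe sets ending in _s_at or _x_at left out, which can match related transcripts, neither remained, and none of the 55 was past 2-fold at the bright minimum.

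In the list of ligands, further binding proteins and proteins with an IGFBP domain, 6 of 10 genes were measured, 4 below 0, with a median of -0.26. IGF1, a ligand, read 46.1 on the control array and 5.9 on the FGF-AS array on 209542_x_at (log2 ratio -2.12). This dim probe set read under the minimum on the FGF-AS array and was the only measured one of IGF1. The ligand IGF2 had no probe set naming 1 gene, so its level was not assessed. IGFBPL1, a binding protein relative, was highest at 0.44 (51.1 and 71.3). IGFBP1 (4.5 and 4.2) and INS (5.3 and 1.6) were below the minimum. Of the 8 proteases that cut binding proteins and their inhibitors, 7 were measured, with a median of 0.12 and none past 2-fold on the brightest probe set. STC1, a stanniocalcin that inhibits PAPPA, stood highest at 0.73 on its brightest probe set (59.4 and 102.9), but its others ran from -0.60 to 1.40. PAPPA itself, chosen after its values were seen because it cuts IGFBP4, read 74.0 and 126.3 (0.73), and between -0.18 and 0.59 on 4 further probe sets. ADAM12, a metalloprotease, was lowest at -0.24 (336.6 and 283.2), with -0.09 to 0.64 on its 3 others.

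Among 18 further adaptors and negative regulators at the receptors, 15 were measured, 11 above 0 and 4 below, with a median of 0.16. Above 0 were 48.1% of all measured genes, and a tilt of this list was not tested. DOK1, a docking protein that dampens tyrosine kinase signals, read 26.8 on the control array and 81.0 on the FGF-AS array (log2 ratio 1.40), and its other measured probe set gave 1.23. Both DOK1 probe sets were thus past 2-fold. SH2B1, an adaptor of the insulin receptor, was lowest at -0.39 (156.2 and 117.7), with -0.15 on its other probe set.

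Of 26 genes of the PI3K-AKT-mTOR arm, 22 were measured, 11 above and 11 below 0, with a median of 0.03 and none past 2-fold on the brightest probe set. PIK3R3, a regulatory PI3K subunit, was lowest at 338.3 and 179.3 (log2 ratio -0.89), with -1.35 on its other probe set. The PI3K subunit genes PIK3R1 and PIK3CB were chosen after their values were seen. PIK3R1, the main regulatory subunit, read 234.8 and 142.6 (-0.70), with others from -1.14 to -0.56, and PIK3CB, a catalytic subunit, read 385.0 and 255.0 (-0.58), with -2.43 on its other one. PIK3R3, PIK3R1 and PIK3CB read lower on every measured probe set. So did 36.1% of genes with exactly 2 measured probe sets and 28.1% of those with exactly 3. PHLPP1, a phosphatase that acts on AKT, was highest at 0.54 (109.6 and 162.5).

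IGF2BP2, one of the IGF2 mRNA-binding protein genes, was dim and lower at -0.62 (58.0 and 35.5), with -0.61 on its other probe set, and both measured genes of that list of 3 were below 0, with a median of -0.42. Of the 3 FOXO transcription factor genes, which AKT restrains, FOXO3 was highest at 0.61 (207.9 and 321.0; others 0.27 to 0.46) and FOXO1 lowest at -0.44 (261.1 and 190.3; -0.22 on the other), and the median was 0.42. None of these was past 2-fold on the brightest probe set. IGF2BP3 was bright there at -0.21 (1247.8 and 1078.0), but its 2 others ran from -1.85 to -0.58.

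**Figure D4:**
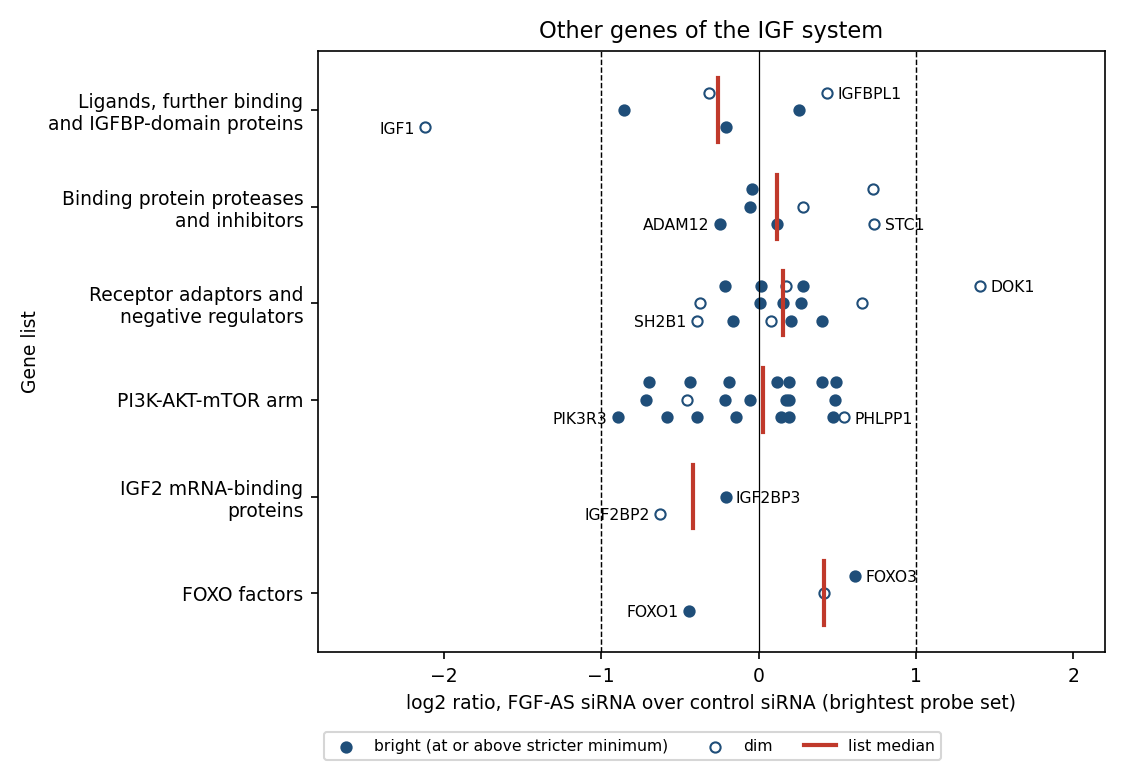
Log2 ratio (FGF-AS siRNA over control siRNA) of the brightest probe set of each of the 55 measured genes in 6 lists of the IGF system, as filled (bright) or open (dim) circles, with a red bar at each list's median, dashed lines at 2-fold, and names for the lowest and highest gene of each list; circles are spread vertically for legibility. IGF1 at -2.12 and DOK1 at 1.40, both dim, lie outside the dashed lines, and the list medians lie between -0.42 and 0.42.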

How the data were processed

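One array for each of 2 siRNA treatments was used as deposited. The authors deposited probe set intensities on a linear scale. GCOS and MAS5 are named in the submitters' processing notes without version, role or scaling target, and how the arrays were scaled against each other stays unknown. The medians over probe sets were 25.5 and 23.1. Without detection calls, dim signals and background cannot be told apart, and the number of arrays limits the precision. Of 54675 probe sets, 62 Affymetrix controls were left out. Of the others 41091 were annotated to 1 gene, 1801 to several and 11721 to none; no probe set of the 10 genes named several. Gene identifiers were matched to RefSeq (41037 found, none changed). The log2 ratio is computed here from the deposited intensities. Ratios, percentiles and SDs were computed with Python 3.11.15, numpy 2.4.6 and pandas 2.3.3, and loess with statsmodels 0.14.6 (span 0.3). The offset is the 25th percentile of signals, the minimum the median and the bright minimum the 75th percentile of probe set means. The pooled SD within genes was tested on simulated data. Named genes were all members, list genes past 2-fold, and the lowest and highest of each list, where these lay on that side of 0. Outside that rule, PAPPA, PIK3R1 and PIK3CB were named after their values were seen. Also outside it were the list genes IGFBP1, INS, IGF2, IGF2BP3, PIK3CA and PIK3R2. Members and lists were chosen with earlier results of these data known. Alternatives were 2 offsets, 3 scalings, 2 minimums, leaving out _s_at and _x_at probe sets, and the mean over probe sets.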

Additional observations from a re-analysis of the deposited data

How the results depend on the processing

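Of the 23 measured probe sets, 20 kept their sign under the 5 alternative offsets and scalings, and none moved by more than the SD of its signal class; the exceptions in sign were 225330_at (IGF1R), 226216_at (INSR) and 203851_at (IGFBP6). The count of member probe sets at least 2-fold higher was 1 in place of 3 with the larger offset and 1 at the bright minimum. It was 4 with quantile normalization, where 238933_at of IRS1 reached 1.0. The count at least 2-fold lower was 0 in place of 1 with the larger offset and at the bright minimum. The larger offset shrinks ratios of dim probe sets, and the bright minimum leaves 10 of 23 probe sets. Without _s_at and _x_at probe sets, 14 member probe sets of 7 genes were left. IRS2, IGFBP3 and IGFBP7 had none among them, and IGF2R had only its dim one, which read higher. Among the other IGF system genes, the count past 2-fold was 2, and it was 0 at the bright minimum, 0 without _s_at and _x_at probe sets, 4 when no minimum was set, and 4 when probe sets of a gene were averaged. Their median ran from -0.06 to 0.19, and that of the members from -0.12 to 0.32. Median centring moved the median of all genes from -0.02 to 0.12. Of all genes past 2-fold 43.0% were higher, against 58.2% with loess, 60.4% with quantile normalization and 63.3% with median centring. No paired analysis was possible because each group holds 1 array. The absence of replicate arrays and of detection calls limits all values.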
